A study of Mus musculus with 6 samples.

Results

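The matrix metalloproteinases (MMPs) and their tissue inhibitors (TIMPs) were followed here in BV2 cells, an immortalized mouse microglial line. The set holds 9 of 22672 listed genes, taken by gene symbol: the proteases Mmp8, Mmp9, Mmp12, Mmp13, Mmp14 and Mmp19 and the inhibitors Timp1, Timp2 and Timp3. RNA was sequenced in 3 libraries labelled shscr-ctr and 3 labelled shNumb-ctr. By the usual reading these carry a scrambled hairpin and a hairpin against Numb, an adaptor of Notch receptors. All 6 libraries are BV2 cells, and no label names a treatment or spells out the suffix ctr. How the hairpin was delivered, and whether a line is 1 clone or a pool, is not given in the sources used here. The series title sets Numb beside microglial activation after lipopolysaccharide. Whether the 3 libraries of each group came from separate cultures is not stated. The p-values therefore rest on the spread among these libraries alone, and that spread may be technical.

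MMPs are zinc-dependent proteases made as inactive precursors. An N-terminal propeptide blocks the zinc until it is cut off, for example by plasmin or, for the membrane-anchored MMPs, by the convertase furin. Together they cleave most proteins of the extracellular matrix, and also chemokines, cytokines and growth factors. TIMPs bind the active site and hold these enzymes in check, so that activity depends on both protease and inhibitor. Microglia and macrophages are known to make Mmp9 and Mmp12 when activated, and a change in RNA alone does not give a change in activity.

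Promoter letters are shown for genes chosen after the values were seen, so a difference between them is a description and no test. They are Mmp13 and Mmp12, the cluster genes whose shNumb-ctr values lay above all shscr-ctr values, and Timp2, the most abundant of the 9. The windows are the 250 bases before a RefSeq gene start (GRCm38.p6) and end at the base before that start. Of the 9 genes, 7 were matched in that table, with 2 starts for Mmp12. Mmp9 and Mmp19 were not matched. Capitals mark the letters TGANTCA, bound by the AP-1 factors Fos and Jun (both strands), AGGAAG, an ETS factor motif (both strands, so also CTTCCT), and TATAAA, the TATA box (gene strand). No marked matches overlap each other.
Mmp13, chr9:7272264-7272513, plus strand: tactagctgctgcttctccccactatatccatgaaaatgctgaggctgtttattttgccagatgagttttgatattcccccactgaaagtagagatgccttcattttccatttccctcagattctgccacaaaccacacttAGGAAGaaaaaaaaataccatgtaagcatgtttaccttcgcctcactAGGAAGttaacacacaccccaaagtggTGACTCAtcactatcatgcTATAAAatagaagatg
Mmp12, start 7344397, chr9:7344147-7344396, plus strand: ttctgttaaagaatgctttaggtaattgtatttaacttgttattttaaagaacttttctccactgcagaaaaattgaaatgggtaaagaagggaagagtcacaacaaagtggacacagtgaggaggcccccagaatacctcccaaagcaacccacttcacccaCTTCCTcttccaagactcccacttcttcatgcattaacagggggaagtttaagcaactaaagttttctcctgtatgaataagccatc
Mmp12, start 7347374, chr9:7347124-7347373, plus strand: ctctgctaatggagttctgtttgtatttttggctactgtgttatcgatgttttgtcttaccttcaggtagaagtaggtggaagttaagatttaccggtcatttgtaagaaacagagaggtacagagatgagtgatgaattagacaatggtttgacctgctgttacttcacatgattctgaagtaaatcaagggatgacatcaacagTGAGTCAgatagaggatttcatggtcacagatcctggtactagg
Timp2, chr11:118355412-118355661, minus strand: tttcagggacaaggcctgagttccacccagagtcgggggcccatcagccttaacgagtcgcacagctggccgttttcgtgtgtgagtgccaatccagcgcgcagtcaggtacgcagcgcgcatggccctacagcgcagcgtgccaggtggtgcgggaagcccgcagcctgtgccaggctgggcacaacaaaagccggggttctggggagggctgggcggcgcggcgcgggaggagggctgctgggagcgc
In Mmp13 the AP-1 letters TGACTCA begin 35 bases before the start, with AGGAAG at 62 and 109 bases and TATAAA at 16 bases. The second Mmp12 start has the AP-1 letters TGAGTCA 44 bases upstream, and the first has only CTTCCT, at 87 bases. The Timp2 window holds none of these letters. Over 32851 promoter windows of that length, 6.75% held TGANTCA, 29.5% AGGAAG and 7.59% TATAAA. Of the 8 windows of the 7 genes, 2, 6 and 1 held them. The windows of Mmp8, Mmp14, Timp1 and Timp3, not shown, each held AGGAAG or CTTCCT and no other of these letters. A match describes letters and not a bound site, and no match says only that these letters are not in this window.

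The unit of the deposited levels was taken to be FPKM (fragments per kilobase, scaled for library depth), so that genes can be set against each other. They summed to between 451077 and 455561 per library, and the read depth is unknown. Numb itself was at 36.2 ± 0.455 FPKM in shscr-ctr and 38.4 ± 1.44 in shNumb-ctr (SD, n = 3, limma adjusted p = 0.137). It was not lower under the hairpin named for it, so a direction given below belongs to libraries that carry the label shNumb-ctr. The label microglia was checked against 13 macrophage and microglial markers: 12 were listed and 10 tested, with a sum of 999 to 1014 FPKM in shscr-ctr and 1036 to 1123 in shNumb-ctr. Sall1, a factor of microglial identity, was listed at 0, and Tmem119 and P2ry12 did not exceed 2.02 and 1.09 FPKM. None of the 7 fibroblast, 5 astrocyte, 4 endothelial and 4 neuronal markers reached 1 FPKM. Of 4 oligodendrocyte markers 3 stayed under 1 FPKM, and Mbp, a myelin protein, was at 1.24 to 1.66 FPKM over the libraries and was not called. The library shNumb-ctr replicate 2 stood apart in some stimulation genes. Il1b was at 4.14 FPKM against at most 0.810 elsewhere, and Lcn2 at 31.6 against at most 7.69. Both come from a list chosen for being high in a single shNumb-ctr library, so they describe that library and are no test of it. Outside that list, Il1a was at 6.12 FPKM against at most 2.31 elsewhere, and Tnf at 38.1 against at most 35.1. In bulk RNA, fewer cells of a type and less RNA per cell cannot be told apart.

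In the libraries labelled shNumb-ctr, Mmp9 and Mmp12 rose, while Mmp19 and Timp2, the most abundant protease and inhibitor of the set, did not pass the test. Only these 4 genes passed the filter of at least 1 FPKM in 3 libraries and were tested. Of the 4, 2 were higher and 0 lower in limma at an adjusted p under 0.05. Over all 10594 genes tested, 8.11% were called higher and 10.7% lower. That split depends on scaling, with 859 higher and 1130 lower as deposited and 994 and 880 after median-of-ratios rescaling. The other 5 genes lay below 1 FPKM in every library, and their values are given without a call.

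**Figure D1:**
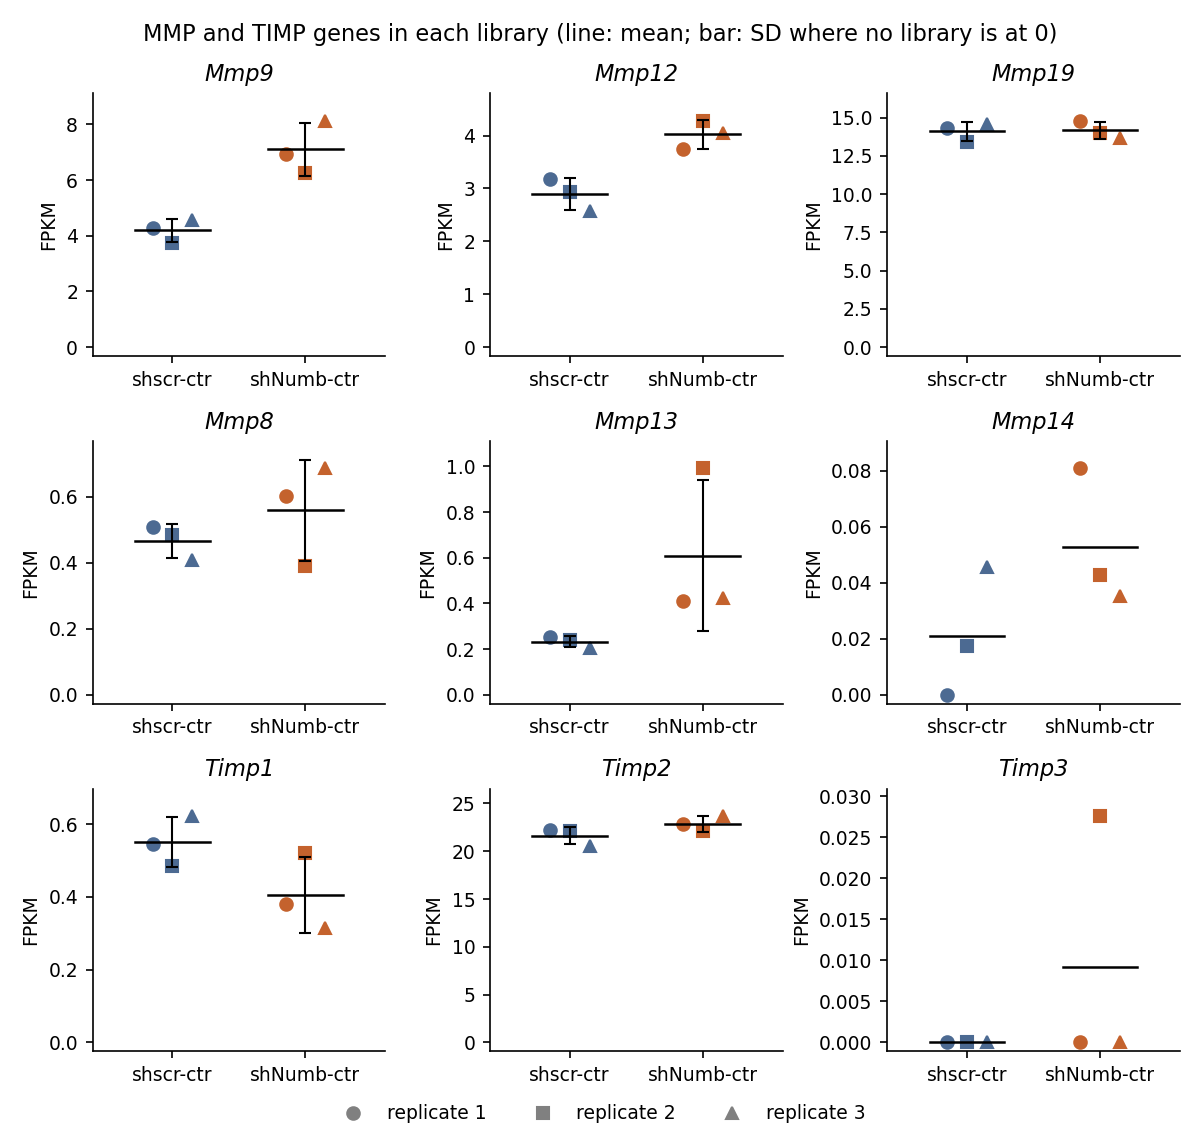
FPKM of the 9 genes in each library, by group, with the mean as a line and the SD as a bar (n = 3, no bar where a library is at 0); symbols mark the replicate number and each panel has its own axis. Mmp9, Mmp12 and Mmp13 lie higher in all 3 shNumb-ctr libraries than in any shscr-ctr library, Mmp19 and Timp2 overlap, and Mmp14 and Timp3 stay below 0.1 FPKM.

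Mmp9 (ENSMUSG00000017737, chromosome 2), gelatinase B, cleaves denatured collagen and the collagen of basement membranes. In replicate order, its level was 4.29, 3.73 and 4.55 FPKM for shscr-ctr, and 6.94, 6.24 and 8.13 for shNumb-ctr. The lowest shNumb-ctr library was above the highest shscr-ctr library, and shNumb-ctr replicate 3 was the highest of the 6. The means were 4.19 ± 0.415 and 7.10 ± 0.960 FPKM (SD, n = 3), a fold of 1.69. The fold change was 0.64 on the log2(FPKM + 1) scale (SE 0.0958, 95% interval 0.42 to 0.86, limma adjusted p = 0.00499). By log2 fold change Mmp9 stood at rank 49 of the 10594 tested genes, counted from the highest. The call was kept in every alternative run, with log2 values from 0.55 to 0.74 and limma adjusted p up to 0.0198. In shNumb-ctr replicate 2, where Lcn2 was highest, Mmp9 was the lowest of its group. Lcn2 encodes lipocalin 2, a secreted protein known to bind the Mmp9 protein in humans. A link between Lcn2 and Mmp9 was not tested in these mouse cells. In shscr-ctr, too, replicate 2 had the lowest Mmp9 level.

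Mmp12 (ENSMUSG00000049723, chromosome 9), macrophage elastase, cleaves elastin and is made mainly by macrophages. Its levels were 3.18, 2.94 and 2.58 FPKM in the shscr-ctr libraries and 3.74, 4.28 and 4.05 in the shNumb-ctr libraries, in replicate order. The groups did not overlap, and the highest value was that of shNumb-ctr replicate 2. The means were 2.90 ± 0.302 and 4.02 ± 0.271 FPKM (SD, n = 3), a fold of 1.39, with a log2 fold change of 0.37 (SE 0.0772, 95% interval 0.19 to 0.55, limma adjusted p = 0.0160). Without shNumb-ctr replicate 3 the call for Mmp12 was lost, at limma adjusted p = 0.0507 and a log2 fold change of 0.36. Without the replicate with high stimulation genes, shNumb-ctr replicate 2, the values were 0.33 for Mmp12 (limma adjusted p = 0.0466) and 0.72 for Mmp9 (0.00624). Among tested genes, 16.3% were higher in all 3 shNumb-ctr libraries than in any shscr-ctr library, as Mmp9 and Mmp12 were.

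Mmp19 (ENSMUSG00000025355, chromosome 10), a secreted protease of basement membrane proteins, was the most abundant MMP listed. It was at 14.3, 13.4 and 14.6 FPKM in shscr-ctr and 14.8, 14.0 and 13.7 in shNumb-ctr, so the groups overlapped. The log2 fold change was 0.01 with a 95% interval of -0.10 to 0.12 (SE 0.0482, limma adjusted p = 0.934). Exons of Gm47093 and Tmem198b on the opposite strand cover 28.3% of the Mmp19 exon bases in GENCODE release M21. Whether counting used the strand is not given in the sources used here, so the Mmp19 level is uncertain. Tmem198b was at 7.42 ± 0.0205 FPKM in shscr-ctr and 7.02 ± 0.681 in shNumb-ctr (SD, n = 3).

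Mmp13 (ENSMUSG00000050578) and Mmp8 (ENSMUSG00000005800), both on chromosome 9, are collagenases that cut fibrillar collagen, Mmp13 the main one of rodent bone and cartilage and Mmp8 that of neutrophil granules. Mmp13 was at 0.251, 0.239 and 0.205 FPKM in shscr-ctr and 0.412, 0.992 and 0.423 in shNumb-ctr. Every shNumb-ctr library was above every shscr-ctr library, and shNumb-ctr replicate 2 was far above the other 2. The means were 0.232 ± 0.0239 and 0.609 ± 0.332 FPKM (SD, n = 3), a fold of 2.62. An exact two-sided permutation test of the difference of means, 0.377 FPKM, gave p = 0.1, the smallest that 3 against 3 allows. With no filter, Mmp13 had a log2 fold change of 0.37 and was not called (limma adjusted p = 0.145). A pseudocount of 0.1 with no filter, chosen after the data were seen, gave 1.00, again without a call (limma adjusted p = 0.0874). That setting called 4.89% of genes higher. Without shNumb-ctr replicate 2 the difference of means was 0.185 FPKM, and the groups still did not overlap. Any part of that library's stimulation genes in the Mmp13 result was not tested further. Of 1272 genes under the filter with a mean of at least 0.2 FPKM, a limit set after the values were seen, 14.2% were likewise higher without overlap, and 7.48% of all genes above 0 but under the filter.

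Mmp8 was at 0.509, 0.484 and 0.410 FPKM in shscr-ctr and 0.604, 0.390 and 0.687 in shNumb-ctr. The groups overlapped, with shNumb-ctr replicate 2 the lowest of all 6 libraries for Mmp8 and the highest for Mmp13 (exact two-sided permutation p = 0.4 for Mmp8). Mmp8 and Mmp9 are also neutrophil genes. Of 12 neutrophil markers, Ngp, S100a9, Ly6g and Retnlg were at 0 in all libraries, and the list summed to 8.77 to 9.91 FPKM in shscr-ctr and 5.67 to 6.87 in shNumb-ctr. Of the list 10 genes stayed under 1 FPKM, and the other 2 were Cxcr2, a chemokine receptor, and Prtn3, proteinase 3. Cxcr2 fell, at 5.67 ± 0.418 and 2.61 ± 0.213 FPKM (SD, n = 3, limma adjusted p = 5.1e-04), while Prtn3 was at 3.02 ± 0.471 and 3.13 ± 0.198 and was not called (limma adjusted p = 0.760). Mmp14 (ENSMUSG00000000957, chromosome 14), the membrane-anchored MT1-MMP that activates other MMPs, was listed at 0, 0.0173 and 0.0457 FPKM in shscr-ctr and at 0.0808, 0.0428 and 0.0351 in shNumb-ctr. These Mmp14 values overlapped and were near 0 throughout (exact two-sided permutation p = 0.3).

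**Figure D2:**
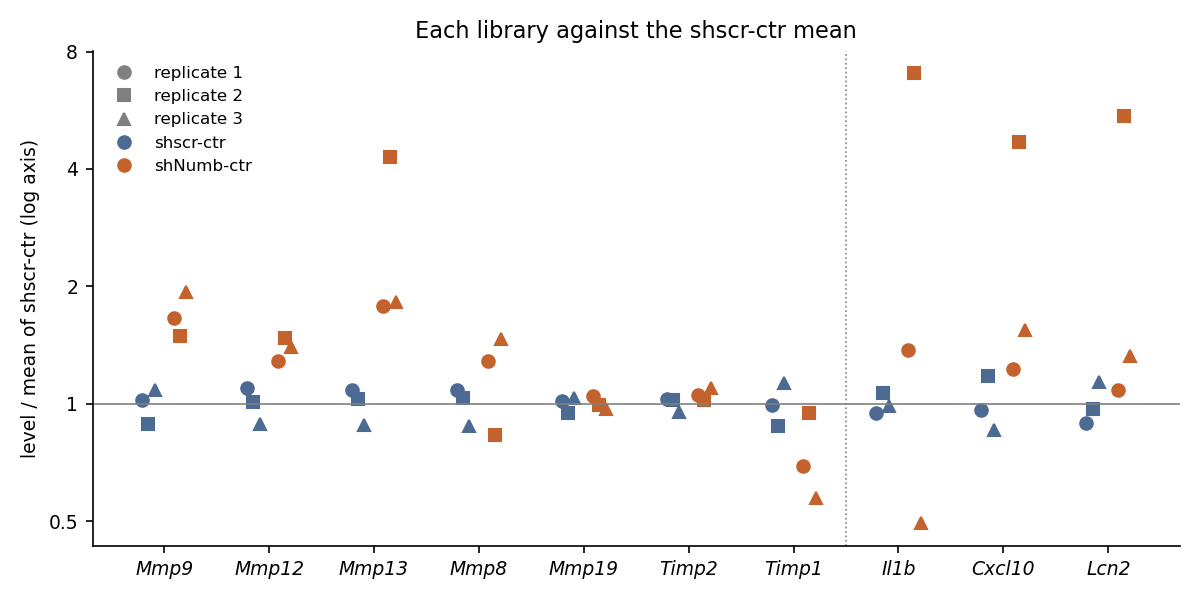
Each library's level divided by the shscr-ctr mean of that gene (log axis), for 7 MMP and TIMP genes and 3 stimulation genes. The 7 lie left of the dotted line, and the 3 to its right were chosen for being high in a single shNumb-ctr library. Colour marks the group and the symbol the replicate number. The squares of shNumb-ctr replicate 2 stand far above the rest for Il1b, Cxcl10, Lcn2 and Mmp13, but not for Mmp9, Mmp8, Mmp19 or Timp2.

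Among the inhibitors, Timp2 (ENSMUSG00000017466, chromosome 11), which both blocks MMPs and helps Mmp14 to activate gelatinase A, was the most abundant gene of the set. It was at 22.2, 22.1 and 20.6 FPKM in shscr-ctr and 22.8, 22.1 and 23.7 in shNumb-ctr, with overlapping groups. The log2 fold change was 0.08 (SE 0.0438, 95% interval -0.03 to 0.18, limma adjusted p = 0.259). Timp1 (ENSMUSG00000001131, chromosome X), the inhibitor known to bind the precursor of gelatinase B, was at 0.547, 0.484 and 0.623 FPKM in shscr-ctr and 0.381, 0.521 and 0.316 in shNumb-ctr. Timp1 was lower in shNumb-ctr replicates 1 and 3 than in any shscr-ctr library, but replicate 2 lay among the shscr-ctr values. Its means were 0.551 ± 0.0699 and 0.406 ± 0.105 FPKM (SD, n = 3), a difference of -0.146 FPKM (exact two-sided permutation p = 0.2). Timp3 (ENSMUSG00000020044, chromosome 10), which stays bound to matrix and also inhibits Adam17, was listed at 0 in 5 libraries and at 0.0276 FPKM in shNumb-ctr replicate 2. Of the exon bases of Timp3, 21.3% lie under exons of Syn3 on the opposite strand.

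In both groups the order of levels began with Timp2, Mmp19, Mmp9 and Mmp12, and no neighbours among these 4 overlapped. Below them Timp1 and Mmp8 overlapped in shscr-ctr, and Mmp13, Mmp8 and Timp1 followed each other with overlapping ranges in shNumb-ctr. The 6 MMPs summed to 22.6, 20.8 and 22.4 FPKM in shscr-ctr and 26.5, 26.0 and 27.1 in shNumb-ctr. The 3 TIMPs summed to 22.7, 22.6 and 21.3 and to 23.2, 22.6 and 24.1, of which Timp2 made up 97.1% to 98.7%. Summed protease RNA per summed inhibitor RNA was thus 0.989 ± 0.0667 in shscr-ctr and 1.14 ± 0.0130 in shNumb-ctr (SD, n = 3). The protease sum leaves out Mmp23, an MMP outside the set, with means of 2.91 FPKM in shscr-ctr and 2.31 in shNumb-ctr. It also rests largely on Mmp19, whose level is uncertain. Mmp19 gave 64.4% ± 0.871 of the MMP sum in shscr-ctr and 53.5% ± 2.50 in shNumb-ctr, and Mmp9 gave 19.1% ± 1.16 and 26.7% ± 3.07 (SD, n = 3). Per unit of Timp2, Mmp9 was at 0.193, 0.169 and 0.220 in shscr-ctr and at 0.305, 0.283 and 0.343 in shNumb-ctr. These sums and ratios are descriptions of chosen genes and carry no test.

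Mmp13, Mmp12 and Mmp8 lie in a cluster of 10 MMP genes on chromosome 9. Of these 10, 5 were at 0 in all libraries (Mmp1b, Mmp3, Mmp1a, Mmp20 and Mmp7) and 9 stayed under 1 FPKM, Mmp12 being the exception. Mmp12 starts 71.9 kb from the start of Mmp13 and Mmp8 285.9 kb from it. In GENCODE release M21, exons of Mmp1b on the opposite strand cover 2.17% of Mmp12 exon bases, and Mmp1b was at 0.

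**Figure D3:**
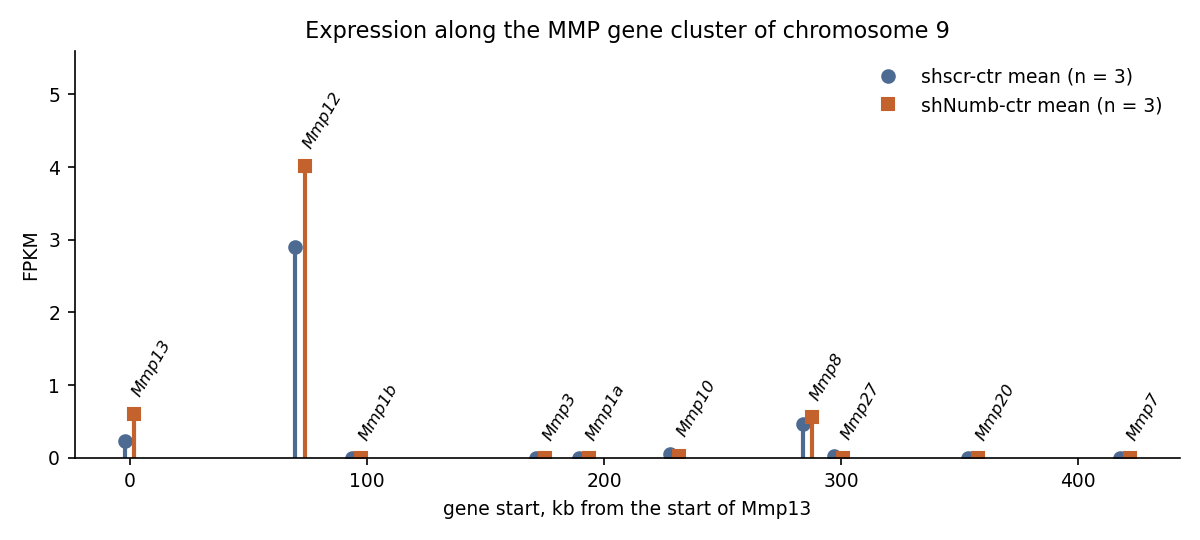
Group means (FPKM, n = 3 each) of the 10 MMP genes of chromosome 9 against the distance of each gene's start from that of Mmp13, in kb. Mmp12 stands at 2.90 FPKM in shscr-ctr and 4.02 in shNumb-ctr, Mmp13 and Mmp8 lie below 1, and the 7 other genes are at or near 0.

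Of the 18 other MMP and TIMP genes of the mouse, 17 were under 1 FPKM in every library, 8 of them at 0, with a highest value of 0.585. The exception was Mmp23, a short membrane-tethered MMP, at 2.87, 2.85 and 3.01 FPKM in shscr-ctr and 2.75, 1.96 and 2.23 in shNumb-ctr. These groups did not overlap either, but Mmp23 was not called (log2 -0.25, SE 0.0913, 95% interval -0.46 to -0.04, limma adjusted p = 0.0958). Groups without overlap, in either direction, were found for 39.9% of all tested genes. Without shNumb-ctr replicate 1 it was called lower, at a log2 fold change of -0.34 and limma adjusted p = 0.0388. Of the 17 low genes 2 are named here after their values were seen. Mmp15, a membrane-anchored MMP, was at 0.0788, 0.0607 and 0.0227 FPKM in shscr-ctr and 0.126, 0.191 and 0.138 in shNumb-ctr. Its groups did not overlap, with shNumb-ctr the higher, as in 7.48% of genes above 0 but under the filter. With no filter Mmp15 was not called (limma adjusted p = 0.0526), nor with a pseudocount of 0.1 as well (0.0552). Mmp2, gelatinase A, had overlapping groups, at 0.423 ± 0.0943 and 0.454 ± 0.164 FPKM (SD, n = 3).

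Among 24 activators, inhibitors and cell-surface partners, 15 were tested, 5 rose and 1 fell in shNumb-ctr. The list had a median log2 fold change of 0.10 against -0.021 over all tested genes, of which 8.11% were called higher and 10.7% lower. Of these 5 risers, 3 belong to plasminogen activation. Plau, urokinase, which makes plasmin from plasminogen, had a mean of 83.4 ± 3.86 FPKM in shscr-ctr and 166 ± 12.4 in shNumb-ctr (SD, n = 3), a log2 rise of 0.99 with limma adjusted p = 1.4e-04. Plat, tissue plasminogen activator, was at 0.641, 0.910 and 0.357 FPKM in shscr-ctr and 2.00, 1.97 and 2.17 in shNumb-ctr (log2 0.91, limma adjusted p = 0.00368). All its shscr-ctr values were under 1 FPKM, so Plat passed the filter through shNumb-ctr alone. With no filter Plat was called as well (log2 0.91, limma adjusted p = 0.0117). Plaur, the urokinase receptor, rose 1.19-fold (limma adjusted p = 0.0132). Plg, plasminogen itself, was listed at 0 in 5 libraries and at 0.0156 FPKM in shscr-ctr replicate 3.

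Furin rose by log2 0.25 (30.8 ± 2.51 FPKM in shscr-ctr, 36.6 ± 1.24 in shNumb-ctr, SD, n = 3), with limma adjusted p = 0.0235. Among 13 alternatives 6 ended the Furin call, the highest limma adjusted p being 0.0737. Itgb3, an integrin chain that can anchor MMPs at the cell surface, was the remaining riser (log2 0.38, limma adjusted p = 0.0146), a call that ended without shscr-ctr replicate 1 (limma adjusted p = 0.0503). Bsg, basigin or EMMPRIN, which induces MMPs in neighbouring cells, was at 343 ± 2.03 and 360 ± 10.6 FPKM (SD, n = 3) and was not called (limma adjusted p = 0.118). Lrp1, which clears MMPs and TIMPs by endocytosis, and Cd44, a surface dock of Mmp9, were not called either, at log2 fold changes of 0.08 and 0.02 (limma adjusted p = 0.113 and 0.777). Reck, the membrane inhibitor of MMPs, was listed at 0 in 5 libraries and at 0.0145 FPKM in shscr-ctr replicate 2. Lcn2 was at 5.79 ± 0.717 and 15.2 ± 14.2 FPKM (SD, n = 3), the second mean set by shNumb-ctr replicate 2, and was not called (limma adjusted p = 0.220).

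**Figure D4:**
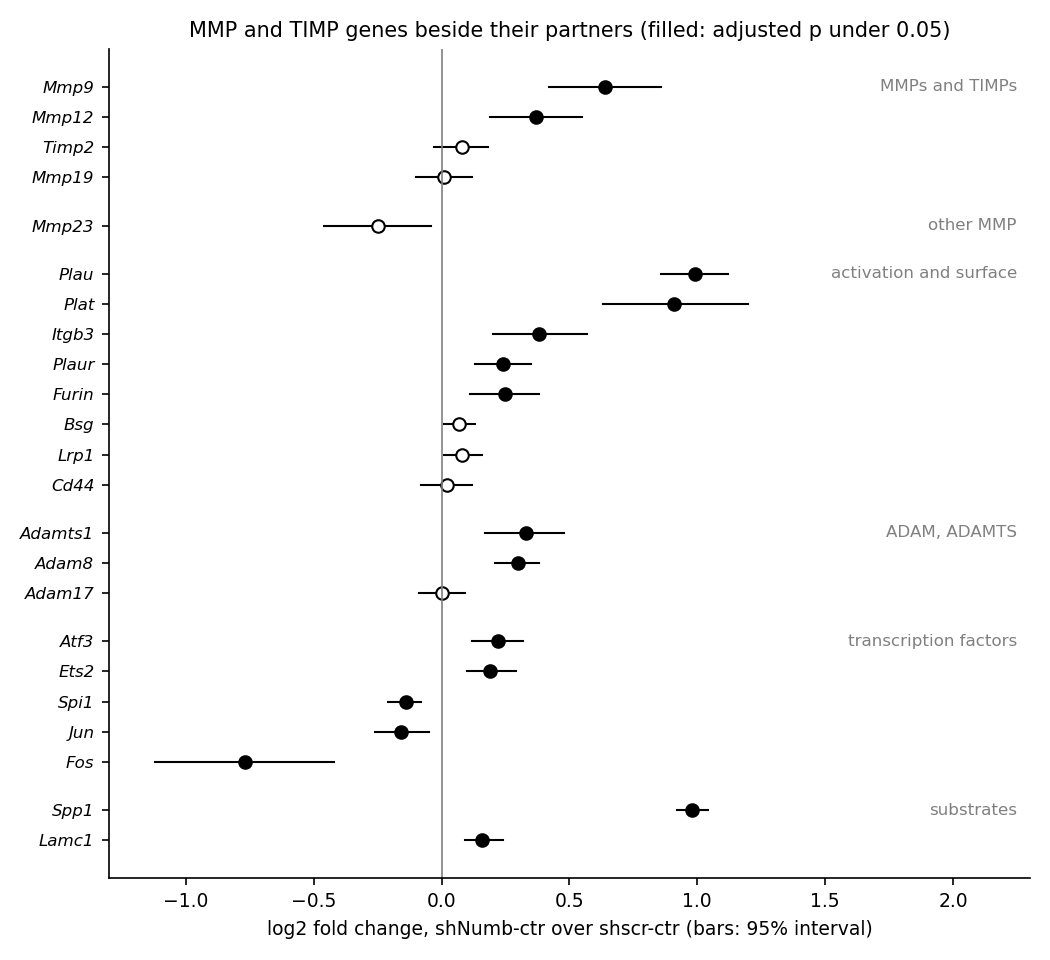
Log2 fold changes (shNumb-ctr over shscr-ctr, on the log2(FPKM + 1) scale) with 95% intervals from limma for the 4 tested MMP and TIMP genes, Mmp23 and partner genes; filled points passed an adjusted p of 0.05. Mmp9 and Mmp12 stand at 0.64 and 0.37, Timp2 and Mmp19 at 0.08 and 0.01, and Plau and Fos at 0.99 and -0.77.

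Of 22 related ADAM and ADAMTS proteases 7 were tested, 2 rose and 0 fell. For these and the substrates below, the shares over all tested genes were 8.11% called higher and 10.7% lower. Adam8, a membrane protease of leukocytes, rose by log2 0.30 (115 ± 3.50 FPKM in shscr-ctr, 142 ± 5.09 in shNumb-ctr, SD, n = 3), with limma adjusted p = 0.00220. Adamts1, a protease of proteoglycans, rose by log2 0.33 (2.23 ± 0.148 and 3.04 ± 0.160 FPKM, SD, n = 3), with limma adjusted p = 0.0153. Among 13 alternatives 3 ended the Adamts1 call, the highest limma adjusted p being 0.0535. Adam17, which sheds membrane-bound tumour necrosis factor, was at 39.9 ± 0.524 and 40.0 ± 1.90 FPKM (SD, n = 3, limma adjusted p = 0.985). Of 33 matrix substrates only 3 were tested, and 2 rose: the laminin chain Lamc1 (log2 0.16) and Spp1, osteopontin, a known MMP substrate (log2 0.98). Exons of Gm42793 on the same strand cover 18.8% of the Spp1 exon bases, so that its level is uncertain. The Lamc1 call was lost in 2 of 13 alternatives.

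Of 23 transcription factors known to act at MMP or TIMP promoters, 20 were tested, 2 rose and 3 fell, with a median log2 fold change of -0.05. Beside this list and the cytokine list below, 8.11% of all tested genes were called higher and 10.7% lower. Fos fell, with a log2 fold change of -0.77 and an SE of 0.153 (31.5 ± 5.51 FPKM in shscr-ctr, 18.1 ± 3.85 in shNumb-ctr, SD, n = 3), at limma adjusted p = 0.0136. Jun was at 28.2 ± 0.388 and 25.2 ± 1.44 FPKM (SD, n = 3, log2 -0.16, limma adjusted p = 0.0461), a call lost in 11 of 13 alternatives. Spi1, the myeloid factor PU.1, was lower by log2 -0.14, and Ets2 and the AP-1 related Atf3 were higher by 0.19 and 0.22. A single alternative each ended the Spi1 call (limma adjusted p = 0.0519) and the Ets2 call (0.0514). Among 19 genes of cytokine signalling, mostly cytokines and receptors that induce MMPs or TIMPs, 14 were tested. Il6st rose, and Il6ra and Socs3, a suppressor of cytokine signalling, fell. Il6st had a log2 fold change of 0.18, and Il6ra and Socs3 of -0.29 and -0.22. The Il6st and Socs3 calls were lost in 9 and 4 of 13 alternatives.

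Over the 6 libraries, the genes of at least 5 FPKM whose log2 levels ran most like Mmp9 were Fcgr2b, an inhibitory antibody receptor (Pearson r = 0.996), and Glb1, lysosomal beta-galactosidase (r = 0.993). For Mmp12 they were Arpc5, an actin-nucleating Arp2/3 subunit (r = 0.990), and Gyg1, glycogenin (r = 0.989). These were the highest of 8086 genes compared, predicted genes and assembled transcripts left out. The 6 points share the group difference and the same libraries, so r is a description. Fcgr2b rose 1.22-fold and Arpc5 1.17-fold, less than Mmp9 and Mmp12 on the same scale.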

How the data were processed

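BV2 RNA was taken up in TRIzol and sent out for sequencing, per the labels' protocols. For 22672 genes, the authors deposited 1 value per library under a header without a unit. These deposited values, fractional and down to 1e-06, were taken as FPKM, already scaled by the authors for gene length and depth; from the values alone TPM cannot be told apart from FPKM. The submitters' processing notes name CASAVA and DESeq2 without version or role. Aligner, build, annotation and strand setting: not given in the sources used here. Low values did not step in whole reads, so depth is unknown.

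Values were tested as log2(FPKM + 1), a pseudocount of 1, for 10594 genes of at least 1 FPKM in at least 3 libraries. shNumb-ctr was compared with shscr-ctr in limma (3.58.1, R 4.3.3) with a mean-dependent prior variance, no covariate, two-sided, with Benjamini-Hochberg adjustment over all tested genes and a threshold of 0.05. Fold changes on that scale understate those of low genes. Genes below the filter were compared with exact permutation tests (5 genes, Python 3.11.15), unadjusted; 3 against 3 cannot go below p = 0.1. The fit was tested on simulated data.

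The genes and lists were chosen with earlier results of these data known. Named are all 9 genes, other MMPs of at least 1 FPKM, up to 4 called genes per list and direction, and Furin, Plau, Bsg, Reck, Lcn2, Cd44, Lrp1, Adam17, Fos and Jun. Plg, Mmp2, Mmp15, Tmem198b, Il1a, Tnf, Osm, Lif and the likeness genes, apart from their own rule, lie outside it. A called gene of the partner lists that the rule takes is not reported here. Promoters are from RefSeq (GRCm38.p6). Sequence shared with other genes was looked up in GENCODE M21 in windows of 50 bases: no window of Mmp8, Mmp9, Mmp13, Mmp19, Timp1 or Timp2 was shared, and at most 0.94% of those of the other 3. Spp1 shared 9.59%. Alternatives were a pseudocount of 0.1, no filter, both together (chosen after the data were seen), 2 scalings, a replicate block, a constant prior variance and each library left out.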

Additional observations from a re-analysis of the deposited data

How the results depend on the processing

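Mmp9 was called higher in all 13 alternatives. Mmp12 was called in all but 1: without single libraries, 1 to 2 of the 9 genes were called higher, 1 without shNumb-ctr replicate 3, and 0 were called lower in any setting. Over all genes, the higher calls numbered 859 and the lower 1130. Without single libraries they ranged from 499 to 671 and from 465 to 869; the higher calls were 499, 569, 515 and 543 and the lower 465, 630, 623 and 608 without shscr-ctr replicates 1 and 3 and shNumb-ctr replicates 1 and 3. With the replicate number as a block, 520 genes were higher and 559 lower, and 3 genes of the partner lists were lower in place of 6. That block kept the Mmp9 and Mmp12 calls, with limma adjusted p of 0.00665 and 0.0456. Deviations of same-numbered libraries correlated at 0.01, 0.01 and 0.05, and those of differently numbered ones at -0.09 to 0.07. These values show no pairing by number, but cannot show that none exists, and the labels state none. Of the partner lists, chosen with earlier results known, 12 genes were higher and 6 lower. Over all tested genes the shares were 8.11% higher and 10.7% lower. Without single libraries 7 to 11 list genes were higher and 2 to 5 lower. These counts were 7 and 2 without shscr-ctr replicate 1, and 3 were lower without shNumb-ctr replicate 3. The cause of these moves was not tested beyond the smaller number of libraries.

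Over 28 genes and 361 values under alternatives, 302 kept direction and side of the threshold, 50 lost the call and 1 gained it. Plat fell under the filter in 3 alternatives and has no value there. The other 8 changed sign, all of them small differences without a call. Leaving out shscr-ctr replicate 2 gave -0.029 for Mmp19, and leaving out shNumb-ctr replicate 1 gave -0.0206; the highest such value was 0.0316. For Cd44, leaving out shscr-ctr replicate 3 gave -0.00291, and leaving out shNumb-ctr replicate 1 gave -0.0161; the highest was 0.0553. Adam17 went to -0.000884 and -0.00662 without shscr-ctr replicates 2 and 3, and to -0.0281 and -0.00604 without shNumb-ctr replicates 1 and 2; its highest was 0.038. The cause was not tested. With the depth unknown, no detection limit can be given for Mmp14, Timp3 and the other genes near 0.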
